A study of Mus musculus with 6 samples.

Results

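The immediate early transcription factors described here are 10 genes, Fos, Fosb, Fosl2, Jun, Junb, Atf3, Egr1, Egr3, Ier2 and Nr4a1. The rule that chose them is a list of names, of genes known to be switched on within minutes of a stimulus, and it used no measured value, but it was drawn up with earlier results of these data known. All 10 were among the 24421 genes of the count table, and all 10 passed the filter on low counts that 15988 genes passed. RNA was measured in 6 libraries of cultured mouse cochleae, 3 labelled control and 3 labelled neomycin. Neomycin is an aminoglycoside antibiotic that kills the sensory hair cells (HCs) of the cochlea.

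Every library came from wild-type cochleae taken at postnatal day 2 and was made from a pool of 6 to 8 cultured cochleae. The explants were kept for 12 h, the neomycin group then received 1 mM neomycin for 6 h, and culture went on in 10 μM EdU, a label of newly made DNA, over 5 further days. The sample records give this same text for all 6 libraries, so that the groups were told apart by the treatment label, and EdU was taken to be shared by the controls. RNA was therefore taken days after the drug, not in the hours in which these genes first respond. No source says whether replicates of a group were separate cultures, so the p-values measure the spread between these libraries, which may be partly technical. Because whole explants were measured, fewer cells of a type and less RNA per cell cannot be told apart.

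Immediate early genes are induced without new protein synthesis, by transcription factors such as SRF, the ELK factors and CREB that already sit in the cell and are activated by MAP kinases and calcium. Their products are mostly transcription factors. FOS and JUN proteins pair through leucine zippers to form AP-1, which binds DNA and drives later genes. ATF3 is a stress-induced partner of the same family, EGR proteins are zinc finger factors, NR4A1 is an orphan nuclear receptor, and IER2 is a small nuclear protein. Their mRNAs are short-lived, and handling or dissection of a tissue is known to induce them.

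At this time point the 10 genes showed small differences, and most of these were toward lower levels after neomycin. Fosb, Fosl2, Jun and Nr4a1 fell, Ier2 rose, and Fos, Junb, Atf3, Egr1 and Egr3 did not pass the test. All 4 falls lost significance without control replicate 2 (edgeR adjusted p of 0.0588 to 0.107), and the rise of Ier2 was lost with a correction for gene length (adjusted p = 0.480). Fosb had the largest change, to 41.3% of its control mean. A gene is said here to have fallen or risen at an adjusted p under 0.05 in edgeR's quasi-likelihood test with Benjamini-Hochberg adjustment over all genes tested, and to be called where it also passed a fold change of 1.5, the thresholds of the study. Fosb was the 1 gene of the 10 called lower, where 6.60% of all genes tested were called lower. None of the 10 was called higher by edgeR, and the count was also 0 with an unadjusted p under 0.05 and the same fold threshold, with DESeq2 and with limma-voom, where 2.24% of all genes were called higher. Without the fold threshold 4 of the 10 were lower, against 16.1% of all genes, and 1 was higher, against 12.9%.

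The promoters of the 4 genes that fell are shown because CREB, SRF and EGR proteins are known to act on immediate early genes through short sites near the start. RefSeq (GRCm38.p6) windows of 300 bases, 250 before the start and 50 after it, were used for 7 of the 10 genes. Egr1 was left out of the search, and Egr3 and Ier2 were without a full window in the table. The windows follow the RefSeq start, which for Fosl2, Nr4a1 and Atf3 lies inside the gene as annotated in GENCODE. They cover chr7:19309996-19310295 on the minus strand for Fosb, chr5:32136222-32136521 on the plus strand for Fosl2, chr4:95052173-95052472 on the minus strand for Jun, and chr15:101266596-101266895 on the plus strand for Nr4a1. Each is written 5′ to 3′ on the strand of its gene, and capitals mark the motifs found.
Fosb: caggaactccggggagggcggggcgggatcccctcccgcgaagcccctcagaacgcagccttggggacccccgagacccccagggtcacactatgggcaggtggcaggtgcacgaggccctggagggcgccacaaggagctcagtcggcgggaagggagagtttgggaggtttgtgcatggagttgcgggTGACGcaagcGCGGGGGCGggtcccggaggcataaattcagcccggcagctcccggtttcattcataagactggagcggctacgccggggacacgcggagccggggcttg
Fosl2: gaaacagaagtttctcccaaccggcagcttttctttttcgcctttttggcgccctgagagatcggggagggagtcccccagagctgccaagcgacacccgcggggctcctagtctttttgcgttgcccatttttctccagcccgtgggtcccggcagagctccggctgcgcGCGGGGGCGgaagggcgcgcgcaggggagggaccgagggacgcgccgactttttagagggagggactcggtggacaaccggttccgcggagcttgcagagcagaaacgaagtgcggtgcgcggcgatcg
Jun: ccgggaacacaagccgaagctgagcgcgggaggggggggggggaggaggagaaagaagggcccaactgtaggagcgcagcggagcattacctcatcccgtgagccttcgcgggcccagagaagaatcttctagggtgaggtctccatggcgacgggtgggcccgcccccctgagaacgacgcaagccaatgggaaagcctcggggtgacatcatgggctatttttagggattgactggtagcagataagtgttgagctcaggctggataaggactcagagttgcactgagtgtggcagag
Nr4a1: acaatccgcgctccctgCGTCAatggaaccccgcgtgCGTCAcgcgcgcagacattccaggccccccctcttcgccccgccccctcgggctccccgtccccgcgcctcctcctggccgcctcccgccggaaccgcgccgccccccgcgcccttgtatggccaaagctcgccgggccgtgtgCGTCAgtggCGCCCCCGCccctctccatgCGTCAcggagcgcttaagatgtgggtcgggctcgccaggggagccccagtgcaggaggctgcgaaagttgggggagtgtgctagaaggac

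The letters were searched on both strands, and all 32851 promoter windows of the same length served as the comparison. TGACG, the core shared by cAMP response elements, stood in 5 of the 7 windows, those of Fos, Fosb, Junb, Atf3 and Nr4a1, and in 20.8% of all windows. The EGR motif GCGNGGGCG stood in 3, those of Fosb, Fosl2 and Nr4a1, against 5.55% of all windows. In Nr4a1 the TGACG core was found at 4 places, all on the minus strand relative to the gene, and the EGR motif at bases -60 to -52 from the start. In Fosb the core at -60 to -56 and the EGR motif at -50 to -42 lay close together, and in Fosl2 the EGR motif was at -79 to -71. The letters TATAAA stood in the windows of Fos and Junb, against 13.6% of all windows. In Fos they were at -33 to -28, before the start, and in Junb at 1 to 6, from the start on. Neither the AP-1 motif TGANTCA, found in 7.81% of all windows, nor the full TGACGTCA (1.79%, which contains the core) nor the CArG box that SRF binds (1.63%) was in any of the 7. Sites farther than 250 bases before the start, and any sites of Egr1, Egr3 and Ier2, were not searched. Absence from a window therefore does not mean that the gene lacks the site. The Jun window held none of the 6 motifs, and these letters being absent says nothing of what binds there. The TGACG core was in 2 of the 4 windows printed here and in all 3 of those of genes that did not pass the test.

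**Figure D1:**
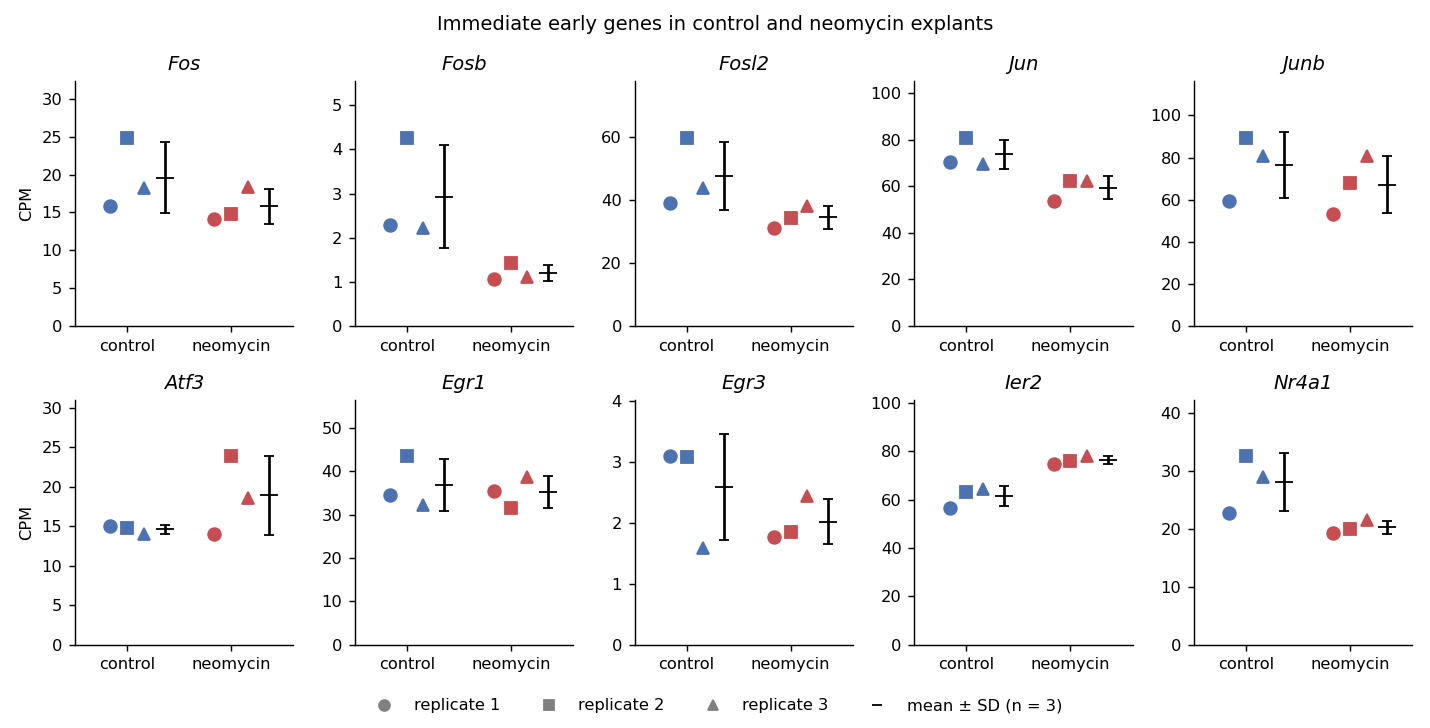
TMM-scaled CPM (vertical axes from 0) of the 10 genes in the 3 control and 3 neomycin libraries, with the marker shape giving the replicate and bars giving mean ± SD (n = 3). Fosb, Fosl2, Jun and Nr4a1 were lower in every neomycin library than in any control and Ier2 was higher, while the groups overlapped for the other 5.

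Values are given in CPM, the counts of a gene divided by the TMM-scaled size of its library, and the fold changes are log2 values, neomycin minus control. The FOS genes encode the AP-1 subunits that need a JUN partner, and of the 3 among the 10 Fosb was the lowest in reads. Fosb stood at 2.29, 4.27 and 2.22 CPM in the controls and at 1.07, 1.42 and 1.12 CPM in the neomycin libraries. All 3 neomycin libraries were below all 3 controls, and control replicate 2 stood well above the other controls. The control mean was 2.93 ± 1.17 CPM and the neomycin mean 1.20 ± 0.191 CPM (SD, n = 3). On the log2 scale Fosb changed by -1.27 ± 0.30 (SE, 95% interval -1.92 to -0.63, edgeR adjusted p = 0.00799). These levels rest on 125 to 223 reads in a control library and 57 to 84 in a neomycin library.

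Fosl2 encodes FRA2, a longer-lived member of the family. It stood at 39.2, 59.9 and 44.0 CPM in the controls and at 31.0, 34.2 and 38.2 CPM after neomycin. The groups did not overlap, but the highest neomycin library and the lowest control were close. The log2 fold change was -0.47 ± 0.13 (SE, 95% interval -0.76 to -0.18, edgeR adjusted p = 0.0216). Fos itself, the founding member, stood at 15.9, 24.9 and 18.2 CPM in the controls and at 14.1, 14.8 and 18.4 CPM after neomycin. Neomycin replicate 3 lay above 2 of the controls, so the groups overlapped. Its log2 fold change of -0.31 ± 0.16 (SE) had a 95% interval from -0.65 to 0.02, and the edgeR adjusted p was 0.148.

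Jun encodes the main AP-1 subunit that can pair with itself as well as with FOS proteins. It stood at 70.4, 80.9 and 69.7 CPM in the controls and at 53.8, 62.3 and 62.1 CPM after neomycin. The treated libraries were all lower, and the replicates lay closer together than for Fosb or Fosl2. Jun fell by 0.31 on the log2 scale (SE 0.08, 95% interval -0.49 to -0.13, edgeR adjusted p = 0.0170). Fos had nearly the same fold change as Jun, with an SE of 0.16 against 0.08. Junb, whose product is a weaker activator than JUN, stood at 59.2, 89.5 and 80.8 CPM in the controls and at 53.2, 67.8 and 80.6 CPM after neomycin. Its groups overlapped through control replicate 1, which was below 2 of the neomycin libraries, and its log2 fold change was -0.19 ± 0.15 (SE, 95% interval -0.52 to 0.15, edgeR adjusted p = 0.387).

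Atf3, induced by stress and injury and known from damaged neurons, was not lower. It stood at 15.0, 14.8 and 14.0 CPM in the controls and at 14.0, 23.9 and 18.6 CPM after neomycin. The 3 controls were nearly alike, whereas neomycin replicate 1 was at their level and the other treated libraries were above it. The log2 fold change was 0.37 ± 0.15 (SE, 95% interval 0.04 to 0.70), and the edgeR adjusted p of 0.0897 missed the threshold.

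Egr1 and Egr3 encode zinc finger factors that bind GC-rich sites in many growth-responsive genes. Egr1 stood at 34.6, 43.5 and 32.3 CPM in the controls and at 35.4, 31.4 and 38.6 CPM after neomycin. Its groups were mixed throughout, with a log2 fold change of -0.06 ± 0.11 (SE, 95% interval -0.31 to 0.18, edgeR adjusted p = 0.704). Egr3 stood at 3.10, 3.09 and 1.58 CPM in the controls and at 1.77, 1.85 and 2.44 CPM after neomycin. Control replicate 3 lay below every treated library. Its log2 fold change of -0.36 ± 0.28 (SE) had the wide 95% interval of -0.97 to 0.25 (edgeR adjusted p = 0.359).

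Nr4a1 encodes a nuclear receptor induced in many cells by growth factors and depolarisation. It stood at 22.6, 32.5 and 28.9 CPM in the controls and at 19.2, 19.9 and 21.5 CPM after neomycin. The treated libraries lay close together and just below the lowest control. The log2 fold change was -0.47 ± 0.12 (SE, 95% interval -0.73 to -0.21, edgeR adjusted p = 0.0126).

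Ier2 was the gene that rose. It stood at 56.7, 63.3 and 64.4 CPM in the controls and at 75.0, 76.0 and 78.1 CPM after neomycin. Both groups were tight and well apart, with a mean of 61.5 ± 4.15 CPM in the controls and 76.4 ± 1.61 CPM after neomycin (SD, n = 3). The log2 fold change was 0.31 ± 0.07 (SE, 95% interval 0.16 to 0.47, edgeR adjusted p = 0.00732), opposite in sign to that of Jun and of the same size. Fold changes in this comparison varied with gene length, and Ier2 has the shortest exon length of the 10, 1522 bases. With that trend removed its log2 fold change was 0.07 (edgeR adjusted p = 0.480), Fosl2, the longest at 9680 bases, came to -0.29 (adjusted p = 0.139), and Fos came to -0.46 (adjusted p = 0.0400). By contrast Fosb, Jun and Nr4a1 stayed below an adjusted p of 0.05 with the trend removed.

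Taking the groups without a model, 4 of the 10 were lower in every neomycin library than in any control, where 22.5% of all genes were, and 1 was higher in every neomycin library, where 21.0% of all genes were. In either direction 8 of the 10 had a log2 fold change below 0, as had 50.5% of all genes tested. The median over the 10 genes was -0.31, and that over all genes was -0.00.

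**Figure D2:**
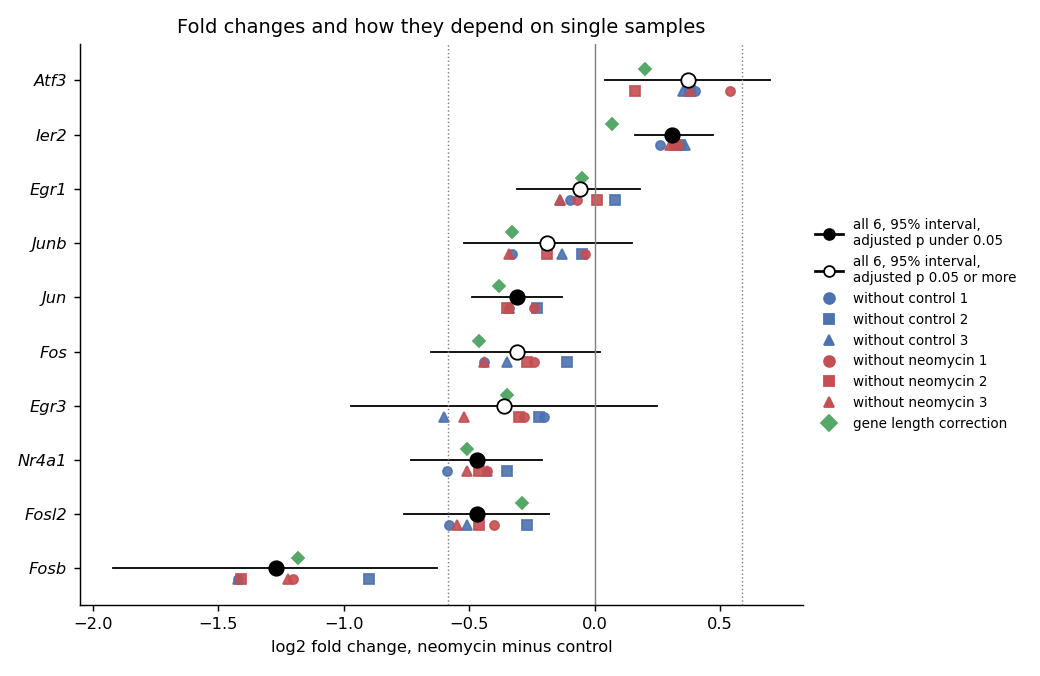
Log2 fold change, neomycin minus control, of each of the 10 genes (large circles with 95% intervals, filled where the edgeR adjusted p was under 0.05), with the value without each library in turn and with the gene length trend removed. Dotted lines mark a fold change of 1.5, and Fosb moved from -1.27 to -0.90 without control replicate 2, the farthest of its values.

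The fall of the 4 genes rested in part on control replicate 2, which had the highest value of all 6 libraries for each of them. Without it the log2 fold changes were -0.90 for Fosb (edgeR adjusted p = 0.0588), -0.27 for Fosl2 (0.107), -0.23 for Jun (0.0942) and -0.35 for Nr4a1 (0.0752), all still negative. Ier2 stayed at 0.34 (adjusted p = 0.0246). Thus 1 of the 10 was below 0.05 without this library, against 5 with it, while the share of all genes below 0.05 went from 29.0% to 15.9%. Fosb was then no longer called. Without neomycin replicate 2, which lay between the other treated libraries for both, Fosl2 (0.0773) and Nr4a1 (0.0549) were lost, and 15.6% of all genes were below 0.05. Leaving out neomycin replicate 1, Fosl2 (0.0580) and Jun (0.0570) were lost, while Atf3 reached 0.54 on the log2 scale (edgeR adjusted p = 0.00628). In the other direction, Atf3 came to 0.16 without neomycin replicate 2 (edgeR adjusted p = 0.446) and to 0.20 with the length trend removed (0.352). Leaving out control replicate 1 brought Fos to -0.44 (edgeR adjusted p = 0.0433) and Nr4a1 past the fold threshold, for 2 genes called. Fos was at -0.11 without control replicate 2 (edgeR adjusted p = 0.637).

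The immediate early genes varied more between replicates than most genes. The pooled SD of log2 CPM within groups had a median of 0.261 over the 10 and of 0.134 over all genes tested, and 8 of the 10 were above the latter. Fosb and Egr3, the lowest in reads, had an SD of 0.402 and 0.426. Among genes with a mean of at least 10 CPM, where counting error is small, the median was 0.221 over the 8 genes that reach it and 0.103 over 10383 genes. In that set Junb (SD 0.305), Fos (0.276), Atf3 (0.274) and Fosl2 (0.247) lay at the 98.6th, 97.9th, 97.9th and 96.6th percentile. Ier2, with an SD of 0.0734, lay at the 25.1st, and Jun, with 0.121, at the 63.1st. The spread was the larger in the controls for 8 of the 10, with a median SD of 0.288 against 0.177 after neomycin, and of 0.132 against 0.117 over all genes. Without control replicate 2 the pooled median was 0.168 over the 10 and 0.137 over all genes.

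The replicates moved together across the genes. Control replicate 2 was the highest control for 7 of the 10, as for 27 of 37 other immediate early genes, where it was the highest control for 28.8% of all genes tested. Its mean deviation from the control mean was 0.26 on the log2 scale over the 10 genes, and those of control replicates 1 and 3 were -0.14 and -0.12. Control replicate 1 was lowest for 5 of the 10 and for 28 of the 37, against 35.0% of all genes. In the treated group neomycin replicate 1 was lowest for 9 of the 10 and for 27 of the 37, against 37.1% of all genes, and neomycin replicate 3 was highest for 7 and for 23, against 33.8%. The mean deviations of neomycin replicates 1 to 3 were -0.15, 0.03 and 0.12. Summed over the 10 genes the controls held 319, 417 and 356 CPM and the neomycin libraries 299, 334 and 360 CPM, so that the sums overlapped.

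**Figure D3:**
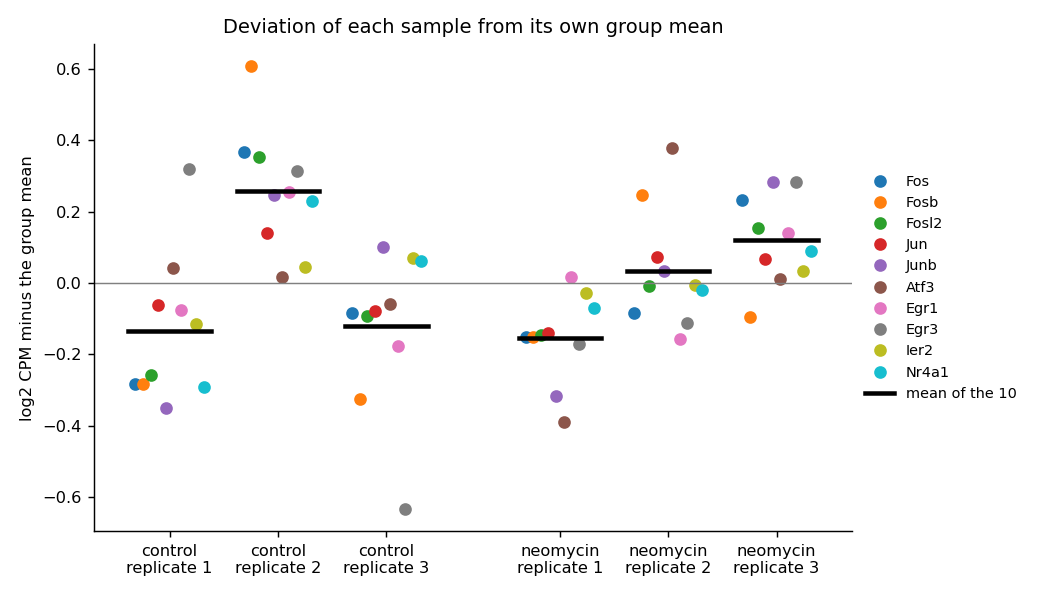
Deviation of each library from the mean of its own group (log2 CPM, vertical axis) for the 10 genes, with black bars for the mean over the genes. Control replicate 2 lay above its group mean for all 10 genes (mean 0.26), and neomycin replicate 1 lay below for most (mean -0.15).

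The heat shock genes, which handling and heat also induce, shared the order of libraries in part. Control replicate 2 was the highest control for 4 of 10 (28.8% of all genes) and control replicate 3 for 6 (36.5%). Control replicate 1 was the lowest control for 9 (35.0% of all genes) and neomycin replicate 1 the lowest treated library for 9 (37.1%). Hspa1a and Hspa1b, the inducible HSP70 genes, are named after their values were seen and are among the 4 with control replicate 2 highest. Hspa1a stood at 8.97, 18.3 and 16.0 CPM in the controls and at 8.70, 12.4 and 16.6 CPM after neomycin, with control replicate 2 the highest and neomycin replicate 1 the lowest. Hspa1b stood at 12.9, 23.5 and 21.5 CPM against 12.3, 13.8 and 20.1 CPM, in the same order at both ends. Neither Hspa1a (edgeR adjusted p = 0.584) nor Hspa1b (adjusted p = 0.273) passed the test. The 2 genes are near-identical copies, and reads that match both could not be assigned to 1 of them with certainty. Of the 10 heat shock genes none was called by edgeR, DESeq2, limma-voom or an unadjusted p under 0.05 with the fold threshold. Of all genes 6.60% were called lower and 2.24% higher by edgeR. The median log2 fold change of the 10 heat shock genes was -0.09. Of these 1 fell (10%, against 16.1% of all genes) and 0 rose (against 12.9%). Hsph1, a co-chaperone, fell by 0.26 (edgeR adjusted p = 0.0195), and Hsp90aa1, the inducible HSP90, was at -0.22 (adjusted p = 0.0655). Whether handling had a part in the values of the immediate early genes was not tested.

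Levels can be compared between genes per kilobase of exon. In the controls Ier2 stood highest at 40.4 ± 2.73 CPM per kb, followed by Junb at 33.2 ± 6.78 and Jun at 23.1 ± 1.98 (SD, n = 3). The libraries of Ier2 and Junb overlapped, and those of Junb and Jun did not. A middle group held Fos at 8.35 ± 1.99, Egr1 at 8.20 ± 1.32, Nr4a1 at 7.98 ± 1.41 and Atf3 at 6.78 ± 0.245 CPM per kb, each overlapping the next in order. Fosl2 followed at 4.93 ± 1.12, and Egr3 at 0.588 ± 0.198 and Fosb at 0.469 ± 0.187 CPM per kb were the lowest and overlapped. After neomycin the order held at both ends, with Ier2 at 50.2 ± 1.05, Junb at 29.2 ± 5.95 and Jun at 18.6 ± 1.53 CPM per kb, and Ier2 no longer overlapped Junb. In the middle Atf3, at 8.75 ± 2.30 CPM per kb, moved from the last place to the top, above Egr1 at 7.84 ± 0.804, Fos at 6.71 ± 0.981 and Nr4a1 at 5.76 ± 0.327, each overlapping its neighbour. Fosb was at 0.193 ± 0.0306 and Egr3 at 0.458 ± 0.0831 CPM per kb.

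Positions are those of GENCODE genes in the mm10 build. Fos is at chr12:85473890-85477273 on the plus strand, Fosb at chr7:19302696-19310051 on the minus strand, Fosl2 at chr5:32135801-32157842 on the plus strand and Nr4a1 at chr15:101254269-101274795 on the plus strand. Egr3 is at chr14:70077203-70082614 on the plus strand. Ier2, at chr8:84661331-84662852, and Junb, at chr8:84974484-84978718, are both on the minus strand of the same chromosome. Jun, at chr4:95049034-95052222 on the minus strand, overlaps Junos on the other strand. Junb likewise overlaps Prdx2, and Atf3, at chr1:191170296-191218039 on the minus strand, overlaps Gm24748. Whether reads were counted by strand was not given in the sources used here, so reads from these partners could not be told apart.

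Other genes of the early response were counted in the same way from lists fixed by name. Of 39 other immediate early response genes 37 were tested. Of these 12 fell (32.4%, against 16.1% of all genes) and 0 rose (against 12.9%). The log2 fold change was below 0 for 33, with a median of -0.26. None of them had an unadjusted p under 0.05 upward, and DESeq2 and limma-voom likewise gave 0 that rose, as they did for the feedback genes and AP-1 targets below. The 12 were Fosl1, Nr4a3, Maff, Btg2, Cyr61, Dusp1, Ptgs2, Csrnp1, Sik1, Plk3, Bhlhe40 and Trib1. Of these 6 were called lower by edgeR, namely Fosl1, Ptgs2, Nr4a3, Plk3, Maff and Cyr61. That was 16.2% of those tested, against 6.60% of all genes, and limma-voom called 6 and DESeq2 4.

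Fosl1, which encodes FRA1, the FOS relative tied to invasion and wound responses, stood at 0.594, 1.46 and 1.17 CPM in the controls and at 0.358, 0.220 and 0.130 CPM after neomycin. The groups were apart, on 41 to 76 reads a control library and 7 to 19 a neomycin library, with a log2 fold change of -2.17 ± 0.49 (SE, edgeR adjusted p = 0.00695). Nr4a3, the sister gene of Nr4a1, stood at 14.0, 16.3 and 13.6 CPM against 7.38, 5.05 and 5.85 CPM, with each treated library far below the controls. Its log2 fold change was -1.27 ± 0.15 (SE, edgeR adjusted p = 0.000109), whereas Nr4a2 was at -0.06 (adjusted p = 0.772). Ptgs2, the inducible cyclooxygenase COX-2, stood at 6.42, 13.8 and 9.93 CPM against 2.43, 4.12 and 4.65 CPM (log2 fold change -1.42 ± 0.27, SE, edgeR adjusted p = 0.00271). Plk3, a stress-responsive kinase, fell by 0.81 (edgeR adjusted p = 0.0164). Jund, the JUN gene that is not an early response gene in most cells, was at 0.19 (adjusted p = 0.137), and Egr2 was at -0.38 (adjusted p = 0.130). Jund, Egr2 and Nr4a2 were picked as family members after their values were seen.

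Of 13 other leucine zipper partners tested 9 did not pass the test, 3 fell (23.1%, against 16.1% of all genes), 1 rose (7.69%, against 12.9%) and 1 was called lower (7.69%, against 6.60%), with a median of 0.04. These shares are near those of all genes. Mafg, a small MAF partner, stood at 14.1, 15.5 and 12.8 CPM in the controls and at 8.62, 9.56 and 6.96 CPM after neomycin and fell by 0.75 on the log2 scale (edgeR adjusted p = 0.00185). Atf7 fell by 0.45 (edgeR adjusted p = 0.00595). Maf was the gene that rose, by 0.39 (edgeR adjusted p = 0.0182), and Mafk fell by 0.28 (edgeR adjusted p = 0.0293), both named after their values were seen.

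Among 29 genes for the kinases and factors upstream 3 fell (10.3%, against 16.1% of all genes) and 0 rose (against 12.9%). In this list 1 was called lower (3.45%, against 6.60%), and the median was -0.12. An unadjusted p under 0.05 upward was found for 2, while DESeq2 and limma-voom each gave 1 that rose. Elk4, an SRF partner, stood at 6.30, 6.84 and 3.74 CPM in the controls and at 2.07, 2.68 and 1.19 CPM after neomycin and so fell to 35.3% of its control mean (edgeR adjusted p = 0.00297). Rps6ka3, which encodes the CREB kinase RSK2, fell by 0.44 (edgeR adjusted p = 0.0137). Elk1, named after its value was seen, fell by 0.29 (edgeR adjusted p = 0.0349). Srf was at -0.02 (edgeR adjusted p = 0.898) and Creb1 at -0.05 (adjusted p = 0.644), also picked after their values were seen, with 95% intervals of -0.17 to 0.14 and -0.23 to 0.12.

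The feedback list, of phosphatases that switch MAP kinases off, EGR co-repressors and mRNA decay factors, held 11 tested genes. Of these 5 fell (45.5%, against 16.1% of all genes) and 0 rose (against 12.9%). The 5 that fell were all dual-specificity phosphatases, and 4 were called lower (36.4% of the list, against 6.60% of all genes). The median was -0.16, and no gene had an unadjusted p under 0.05 upward. Dusp2 stood at 2.01, 1.90 and 2.10 CPM in the controls and at 0.527, 0.237 and 0.391 CPM after neomycin, with the groups far apart. These levels rest on 99 to 139 reads in a control library and 14 to 28 in a neomycin library. The log2 fold change of Dusp2 was -2.38 ± 0.35 (SE, edgeR adjusted p = 0.000530). Dusp4, at -1.32 ± 0.23 (SE, edgeR adjusted p = 0.00161), and Dusp6, the phosphatase of ERK, at -0.81 ± 0.11 (SE, edgeR adjusted p = 0.000303), fell as well. Dusp6 stood at 51.2, 68.8 and 56.4 CPM against 29.8, 34.9 and 35.8 CPM. Dusp8 fell by 0.75 (edgeR adjusted p = 0.00132).

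Genes known as AP-1 targets in other cells numbered 14 tested, of which 5 fell (35.7%, against 16.1% of all genes) and 0 rose (against 12.9%). Of the list 4 were called lower (28.6%, against 6.60% of all genes). The median was -0.22, and no gene had an unadjusted p under 0.05 upward. Mmp3, a matrix protease, stood at 1.65, 4.03 and 4.54 CPM in the controls and at 1.02, 0.712 and 2.03 CPM after neomycin, with overlap at the lowest control, and fell by 1.44 (edgeR adjusted p = 0.0215). Lif, a cytokine, fell by 0.90 (edgeR adjusted p = 0.0114), and Plaur, the urokinase receptor, fell by 0.71 (edgeR adjusted p = 0.0151). Without control replicate 2 the calls among the AP-1 targets went from 4 to 1 and those among the other immediate early genes from 6 to 3. Without neomycin replicate 2 the AP-1 targets had 2. Over all genes the calls also went down, from 1413 to 1037 without control replicate 2 and to 1132 without neomycin replicate 2.

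**Figure D4:**
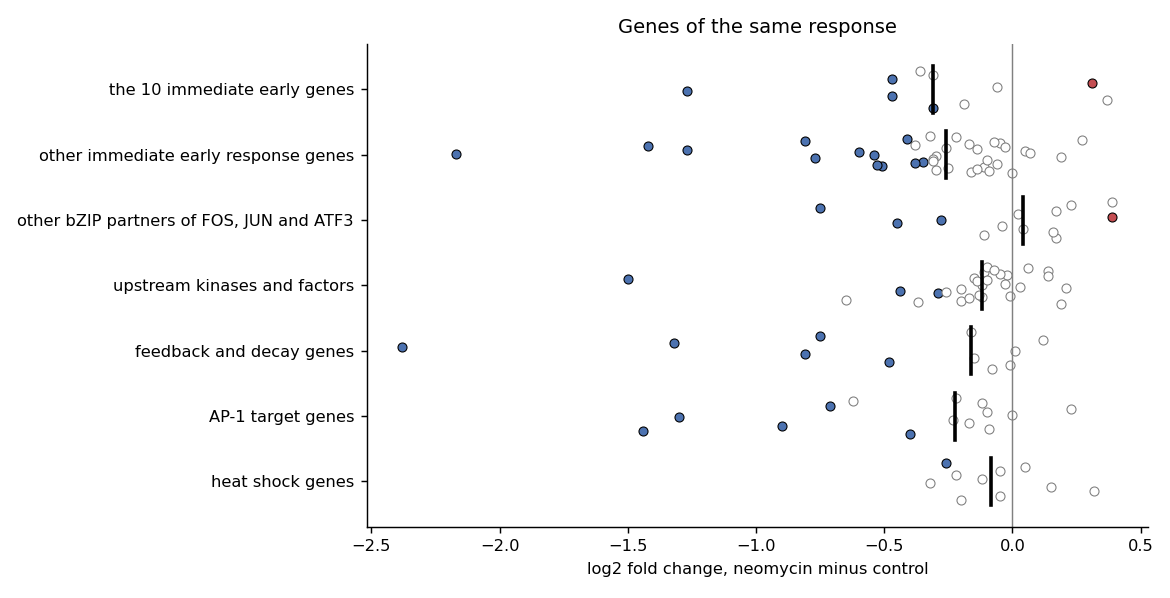
Log2 fold change, neomycin minus control (horizontal axis), of each tested gene in the 7 lists, filled where the edgeR adjusted p was under 0.05 (blue for lower, red for higher), with black bars for the median of a list. Fosl1 at -2.17 and Dusp2 at -2.38 lay farther from 0 than any of the 10 immediate early genes.

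Marker mRNAs of several cell types also differed between the groups. The label of cochlear tissue was borne out by HC and supporting cell (SC) markers in every library. Of 12 HC markers 11 were called lower (91.7%, against 6.60% of all genes), with a median log2 fold change of -2.00. Their summed level was 619 to 800 CPM in the controls and 154 to 176 CPM after neomycin. Slc26a5, which encodes the outer HC motor prestin, was at -3.99 (edgeR adjusted p = 9.40e-09), Ocm at -3.41 (adjusted p = 5.13e-08), the transduction channel gene Tmc1 at -3.16 (adjusted p = 3.91e-07) and Loxhd1 at -2.69. Among 8 endothelium markers 6 were called lower (75%, against 6.60% of all genes), with a median of -1.94. They summed to 281 to 315 CPM in the controls and 267 to 317 CPM after neomycin, mostly from Emcn, which was at 0.12. Cldn5 was at -3.40, Tie1 at -2.83, Pecam1 at -2.71 and Cdh5 at -2.05. Among 8 neuron markers 4 were called lower (50%, against 6.60% of all genes), with a median of -0.74. They summed to 146 to 222 CPM in the controls and 118 to 123 CPM after neomycin. Nefh was at -1.21, Nefl at -1.15, Snap25 at -1.01 and Nefm at -0.89. The groups of Nefh overlapped, at 14.1, 7.40 and 4.47 CPM in the controls and 4.05, 4.61 and 2.59 CPM after neomycin. Its DESeq2 adjusted p was 0.0658. Nefl and Nefm were likewise highest in control replicate 1, at 55.4 and 54.7 CPM, but their groups did not overlap.

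Among 10 macrophage markers 4 were called higher, where 2.24% of all genes were, with a median of 0.53. They summed to 94.1 to 124 CPM in the controls and 135 to 168 CPM after neomycin. Tyrobp was at 0.93, C1qc at 0.63 and C1qa and Cd68 at 0.59. Csf1r, the receptor of a macrophage growth factor, was at -0.05 (edgeR adjusted p = 0.799). Of 9 SC markers 6 were above 0, with a median of 0.11, while 3 fell (33.3%, against 16.1% of all genes) and 1 rose (11.1%, against 12.9%). Prox1 at -1.46 and Fgfr3 at -0.66 were called lower (22.2%, against 6.60% of all genes). Without passing the fold threshold, Jag1 fell by 0.31 (edgeR adjusted p = 0.0103) and Gjb6 rose by 0.42 (adjusted p = 0.000956). Csf1r, Emcn, Jag1 and Gjb6 were picked after their values were seen. Of 9 mesenchyme markers 1 was called in each direction, Dcn at 0.64 and Col1a1 at -1.20, with a median of -0.22. Of all genes 2.24% were called higher and 6.60% lower. Of 6 glia markers none was called by edgeR, DESeq2, limma-voom or an unadjusted p under 0.05 with the fold threshold (median 0.01), with Mbp at -0.29 and Pmp22 at 0.07. For erythroid cells 7 of 8 markers were listed at 0 in every library. Which cells the immediate early transcripts came from, and the part of the marker differences in their levels, was not tested.

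Outside all lists, the 5 genes whose centred log2 CPM over the 6 libraries lay nearest to the mean profile of the 10 were 2810474O19Rik, Il13ra1, Mbnl2, Trp53inp1 and Samd8. Likeness was measured as the root mean square difference, which was 0.0475, 0.0490, 0.0585, 0.0601 and 0.0609. Il13ra1, a cytokine receptor chain, stood at 65.8, 91.2 and 71.0 CPM in the controls and at 60.5, 67.1 and 68.8 CPM after neomycin, with control replicate 2 again the highest. Mbnl2, a splicing factor, stood at 122, 140 and 115 CPM against 95.1, 105 and 111 CPM. Of the 10 genes Jun was nearest to their shared profile, at 0.0696, and Fosb farthest, at 0.517. With 6 libraries, many genes can take such a profile.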

How the data were processed

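RNA was sequenced from 3 control and 3 neomycin pools of wild-type cochlear explants. According to the labels and methods, the authors called bases with CASAVA 1.8, trimmed with Trimmomatic 0.23, aligned to mm10 with HISAT2, and counted reads per gene with HTSeq. The deposited values are raw counts in 24421 rows, named by symbol, and library totals ran from 50471116 to 66068108, so counting error is small except for low genes such as Fosb. Versions of the aligner and counter and the strand setting were not given in the sources used here.

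The 10 members and all lists were chosen with earlier results of these data known. Genes passing filterByExpr (15988) were fitted with edgeR 4.0.16 in R 4.3.3 (TMM scaling, quasi-likelihood test, two-sided, Benjamini-Hochberg over all of them), called at an adjusted p under 0.05 and a fold change over 1.5. SEs were derived from the F statistic, and 95% intervals from its t distribution. The study used DESeq2, which was an alternative (1.42.0), as was limma-voom (limma 3.58.1). The spread used log2 CPM with a prior count of 2. Exon lengths came from GENCODE, matched by symbol (23384 directly, 668 by an older symbol), and the length trend was a lowess fit with a span of 0.3. Other alternatives were 3 scalings, 2 filters, a replicate block, leaving out each library, and no fold threshold. The script was tested on simulated data. Replicates were compared by chi-square of counts, and no pair within a group was alike within sampling noise. Named genes were the 10 members, up to 4 called genes of each other list (the 2 of lowest p where fewer than 2 were called) and the 5 nearest profiles with a mean of at least 1 CPM, and other genes given with values are said in the text to have been picked after their values were seen. Figures were drawn with matplotlib 3.10.9. A called gene of the AP-1 target list is not reported here by name.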

Additional observations from a re-analysis of the deposited data

How the results depend on the processing

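Over all alternatives the 10 genes kept their direction and their side of an adjusted p of 0.05 in 142 comparisons. Another 5 gained significance, 11 lost it, and 2 reversed. Egr1 reversed from -0.06 to 0.08 without control replicate 2 and to 0.01 without neomycin replicate 2, within a range of -0.14 to 0.08. Pmp22 reversed from 0.07 to -0.00 with library totals only, to -0.08 with the length trend removed, to -0.08 with that and the replicate block, and to -0.02 without neomycin replicate 3, with 0.16 without neomycin replicate 1 as the other end of that range. Leaving out single libraries moved the calls among the 10 from 1 to between 0 and 2, and those with an adjusted p under 0.05 from 5 to between 1 and 6. It moved the calls among the other immediate early genes from 6 to between 3 and 9, among the AP-1 targets from 4 to between 1 and 4, and among the upstream genes from 1 to between 1 and 2. Over all genes it moved the calls from 1413 to between 1037 and 1672. Without the fold threshold there were 5 of the 10, 12 of 37 other immediate early genes, 5 of 11 feedback genes and 5 of 14 AP-1 targets. There were also 4 of 13 zipper partners, 3 of 29 upstream genes and 1 of 10 heat shock genes. Of all genes tested 29.0% were below an adjusted p of 0.05. The upstream count was 2 with DESeq2 and 2 with the replicate block. The pooled SD ranged from 0.168 to 0.268 over single libraries left out. Library totals alone shifted the median of all genes to -0.07. With the length trend and the replicate block together Junb came to -0.33 (edgeR adjusted p = 0.0100) and Ier2 to 0.07 (0.431). The cause of these changes was not tested, beyond the smaller number of libraries.

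No source says whether the replicate numbers pair the libraries. Deviations from the group mean correlated weakly between same-numbered libraries, at 0.17, 0.03 and 0.09. With the replicate block the same 5 of the 10 had an adjusted p under 0.05, and 6014 genes did against 4629 without it, and 1465 were called against 1413. Of the 6 libraries 5 correlated best with their own number, a hint from the data and not the design.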

Other observations

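Some genes of the same families were too low to test. Egr4, a zinc finger factor of the EGR family, had 9, 0 and 10 reads in the controls and 2, 0 and 1 after neomycin. Npas4, a neuronal immediate early gene, had 0, 0 and 4 reads in the controls and 2, 12 and 0 after neomycin. Mmp13, a collagenase known as an AP-1 target, had 8, 21 and 5 reads in the controls and 7, 8 and 6 after neomycin, with control replicate 2 the highest. Mmp10 had 1, 4 and 7 reads in the controls and 0, 0 and 1 after neomycin. No fold is given for these genes.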
